A study of Mus musculus with 12 samples.

Results

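The Zfp genes of the mouse encode zinc finger proteins, and 231 of them were measured here in embryonic stem cells that carried a hairpin against the noncoding RNA TUNA. The members were selected on name and on measured level in these libraries. A gene was taken when its symbol was Zfp with digits and at most 1 letter, Zfp42 apart, and when it reached at least 10 normalized counts in at least 3 of the 12 libraries. Of 366 such symbols, 231 met the level, 135 did not and 37 of those 135 were listed at 0 throughout. The deposited table holds 37477 gene symbols, and 8739 of them met the same level and were tested together, so that 8508 other genes stand beside the Zfp genes below. No comparison between groups was part of this rule, but the members were chosen with earlier results of these data known. A gene could also meet the level only through the groups where it was high. At least 10 normalized counts were reached in every library by 161 of the 231, and in at least 1 library of all 4 groups by 207. Only 1 gene met the level through a single group (Zfp712, day 4), 6 did so through 2 groups and 17 through 3. Of the genes that met it through fewer than 4 groups, 3 passed a test below (Zfp128, Zfp286 and Zfp626), while 49 of all 231 did. Zfp128 had no control at 10, and Zfp286 and Zfp626 had no day 4 library there. Each of these 3 met the level without the group in which it was called low, so its call is not independent of the choice. The counts below describe the selected genes and not the whole family. By the third highest library, Zfp777, Zfp687 and Zfp472 stood just inside the limit at 10.4, 10.5 and 10.5 normalized counts, and Zfp456, Zfp498 and Zfp607 just outside it at 9.78, 9.48 and 9.44.

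CCE is a line of mouse embryonic stem cells, grown here in medium with fetal serum and LIF, the cytokine that keeps such cells undifferentiated. In every group the cells had received a pLKO.1-puro lentivirus that expresses a short hairpin RNA and were kept under puromycin, so the controls carried the vector and the selection too. The groups were the control hairpin at day 2 after transduction and the TUNA hairpin at days 2, 4 and 6, with 3 libraries each. Only day 2 has a control of the same day, so at days 4 and 6 the hairpin and the time in culture and selection cannot be told apart. The labels do not say whether the replicates were separate cultures, so each p-value speaks only of how these libraries spread, which may be technical. The row of TUNA itself, under its older symbol, was listed at 0 in 12 of 12 libraries, so the knockdown was not checked. All 9 stem cell markers of the list used for the check, Pou5f1, Sox2 and Nanog among them, were above 0 in every library, and 6 of 7 fibroblast or feeder markers were at 0 in every library. Summed over these stem cell markers, controls held 2944 to 3214 normalized counts. The sums were 2667 to 2847 at day 2, then 2489 to 2703 (day 4) and 1926 to 2381 (day 6). From the steps between low values, each library was estimated to hold 3530736 to 5657695 reads, of which 60.4% to 76.9% lay in 3 rows. The Zfp genes took 13774 to 33198 reads per library, or 1.43% to 1.85% of those outside these rows.

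A C2H2 zinc finger is a short loop held by a zinc ion that reads a few bases of DNA, and most Zfp proteins carry many fingers in a row. Many also carry a KRAB box, which recruits the corepressor Trim28 (KAP1) and, through it, the histone H3 lysine 9 methyltransferase Setdb1 and HP1 proteins. In embryonic stem cells such KRAB zinc finger proteins silence endogenous retroviruses and protect methylation at imprinted loci, while members without the box include activators, chromatin complex subunits and RNA-binding proteins.

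In translated GENCODE transcripts of the GRCm38 build the 231 genes held a median of 11 fingers, from 0 to 40. No finger was found in 4 of them, Zfp259, Zfp330, Zfp365 and Zfp781. A KRAB box was found in 141 genes (61%), which had a median of 12 fingers against 7.5 in the other 90. The box was found by a profile whose pattern and limit were set after the data had been seen. Related members share sequence, which limits how well short reads can be assigned. A median of 3.08% of a member's 31-base words also lay in another gene's transcripts, 172 members shared under 10% of theirs, and 14 shared at least 50%.

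Promoter sequences of RefSeq were listed for 190 of the 231 genes (231 promoters, each from 250 bases before to 50 after the start). The core of the site bound by Zfp143, a member and a general activator at start sites, reads ACTACA, any 2 bases, TCCC on 1 strand and GGGA, any 2 bases, TGTAGT on the other. It lay in 38 of the 231 promoters, or 16.5%, against 1.81% of 32851 promoters of all genes and 2.54% of 21263 promoters of protein-coding genes. With only promoters of at least 14 CG dinucleotides, the shares were 16% (19 of 119) and 3.66% of 10398. The 38 promoters belonged to 37 genes and held 39 matches, 29 of which began between 80 and 1 bases before the start site. Of these 37 genes 29 carry a KRAB box (78.4%, against 59.5% of the genes whose listed promoters lack the core). The hexamer of Zfp57 sites, TGCCGC, lay in 16.5% of the members' promoters and 14.1% of protein-coding ones, and the hypoxia element core ACGTG in 25.5% and 20.9%, both strands counted. A match describes letters in the window and does not show binding.

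**Figure D1:**
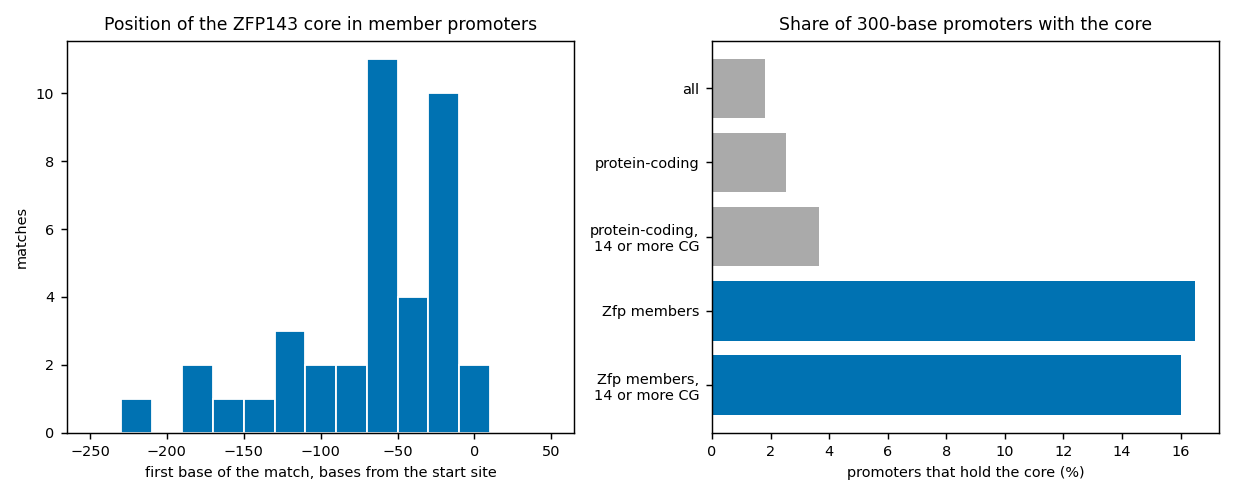
Left, the first base of each of the 39 matches to the Zfp143 core in bases from the start site, in bins of 20 bases. Right, the percent of 300-base promoters that hold the core, for all genes (1.81%), protein-coding genes (2.54%, and 3.66% with at least 14 CG) and the Zfp genes (16.5%, and 16% with at least 14 CG).

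Of the genes with this core, 6 passed a test described below, and the 60 bases around their core are shown because they let the shared word be seen beside the changes. All are from RefSeq on GRCm38.p6, written 5′ to 3′ on the strand of the gene, with the core in capitals.
Zfp128, chr7:12881138-12881197, plus strand: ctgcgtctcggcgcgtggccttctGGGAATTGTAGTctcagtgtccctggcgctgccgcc
Zfp146, chr7:30169836-30169895, minus strand: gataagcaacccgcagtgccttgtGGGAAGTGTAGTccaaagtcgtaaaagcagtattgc
Zfp189, chr4:49521130-49521189, plus strand: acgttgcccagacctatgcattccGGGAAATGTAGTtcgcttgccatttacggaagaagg
Zfp273, chr13:67813725-67813784, plus strand: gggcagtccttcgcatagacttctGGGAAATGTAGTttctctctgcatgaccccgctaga
Zfp383, chr7:29908452-29908511, plus strand: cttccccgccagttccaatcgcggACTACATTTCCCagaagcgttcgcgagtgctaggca
Zfp692, chr11:58306997-58307056, plus strand: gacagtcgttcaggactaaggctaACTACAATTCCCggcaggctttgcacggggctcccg
The core began 16, 130, 22, 67, 41 and 48 bases before the start in these 6 genes. It ran against the gene's strand in the first 4 and along it in Zfp383 and Zfp692.

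Levels spread widely. Over the 12 libraries the mean per gene ran from 7.51 to 4352 normalized counts, with a median of 30.7 against 32.9 over all genes tested, and 78 members had a mean under 20. All 231 were above 0 in each library except control replicate 1, where 230 were. A single read was worth 0.651 to 1.42 normalized counts, so a gene at 10 rests on few reads. Zfp949, a KRAB member, held 22.6% of all member counts. Its libraries stood at 2312, 2587 and 3963 in the control, 4467, 3614 and 3656 at day 2, 7397, 5320.0 and 3669 at day 4 and 4556, 7264 and 3421 at day 6. These ranges overlap between the control and days 2, 4 and 6. A small RNA gene, Gm26461, lies inside Zfp949 on its strand, and its reads cannot be told from those of the messenger here. Zfp518a, a reported partner of the histone methyltransferase G9a, followed with a mean of 1159, and Mir8092 overlaps it on its strand. Zfp281, a factor of the stem cell network, had 644, the RNA-binding protein gene Zfp106 had 404, and Zfp600 had 394, but 87.3% of the 31-base words of Zfp600 lie in other genes. Zfp266, Zfp568, Zfp292, Zfp961 and Zfp740 completed the 10 highest, with 374, 366, 364, 336 and 304. Per kilobase of the longest transcript, where genes can be compared, Zfp949 stood at 1253, Zfp518a at 169, Zfp281 at 130.4, Zfp961 at 124 and Zfp57 at 107 normalized counts.

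**Figure D2:**
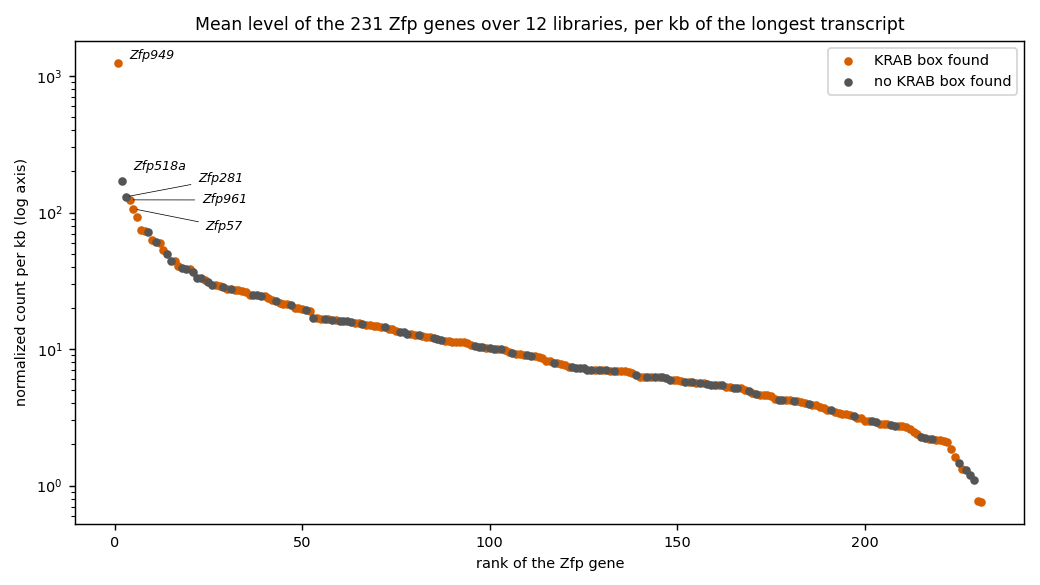
Mean normalized count per kilobase of the longest transcript over the 12 libraries, on a log axis, against the rank of each of the 231 Zfp genes, coloured by whether a KRAB box was found. Zfp949, at 1253, stands apart from Zfp518a at 169 and all the others.

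At day 2, where the control is of the same day, 2 Zfp genes were higher with the TUNA hairpin and none was lower. Zfp146, a small protein made almost wholly of fingers, stood at 54.3, 67.0 and 42.9 normalized counts in the controls, and at 98.5, 127 and 141 on day 2. Every day 2 library lay above every control, with means of 122 ± 21.6 and 54.7 ± 12.1 (SD, n = 3). Its log2 change was 1.15 ± 0.20 (SE), with an adjusted p of 0.00840 by limma with Benjamini-Hochberg adjustment, on the log2(value + 1) scale used throughout. Later it had 68.3, 80.7 and 77.0 at day 4 and 68.4, 51.7 and 61.8 at day 6, and day 4 was below day 2 (-0.68 ± 0.20, adjusted p 0.0433). The day 2 call was lost without day 2 replicate 2 or without day 2 replicate 3 (highest adjusted p 0.0598). Zfp568, a KRAB repressor of a placental Igf2 transcript, had 247, 299 and 304 in the control and 428, 471 and 411 at day 2. The groups did not overlap, and the log2 change was 0.63 ± 0.14 with a limma adjusted p of 0.0446, a call that no longer passed with any 1 of the 6 removed (adjusted p up to 0.198). At day 6 Zfp568 had 429.8, 455 and 352 (0.54 ± 0.14, adjusted p 0.0311), which held only without day 6 replicate 3, and day 4, at 367, 312 and 317, did not pass (adjusted p 0.303).

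The 2 genes called higher are 0.866% of the members, beside 0.412% of all genes tested, and the 0 called lower stand beside 0.549%. At an unadjusted p under 0.05 there were 36 members (15.6%, beside 12.2% of the other genes). A fit of only the control and day 2 libraries called 1 member lower. The median log2 change of the members was 0.08 against 0.00 for the other genes, and 140 of 231 (60.6%) were positive, against 50.6% of the others.

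**Figure D3:**
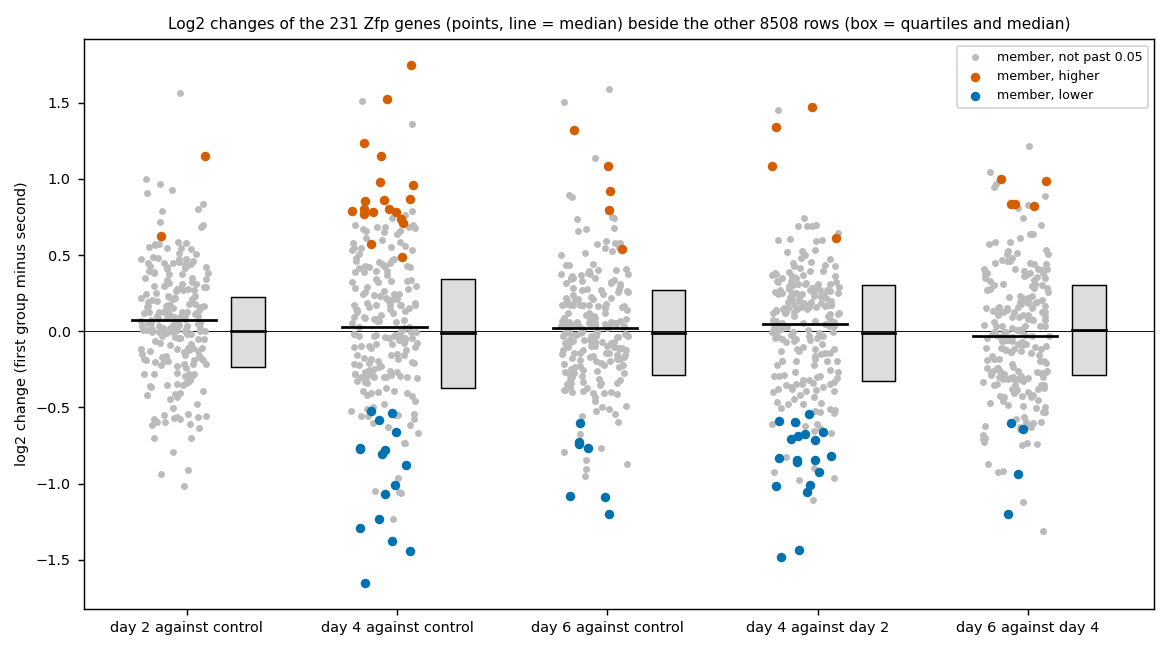
Log2 change of each of the 231 Zfp genes (points) in 5 comparisons, with their median (line), beside the quartiles and median of the other 8508 genes (boxes). Orange and blue points passed the limma test at 0.05, and day 4 against control holds the most of them, 19 higher and 16 lower.

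Against the day 2 control, day 4 held the most changes of these genes, with 19 higher and 16 lower. These are 8.23% and 6.93% of the members, beside 6.99% and 7.76% of all genes tested, so neither share stands far from the background. The median log2 change was 0.03 for the members and -0.01 for the others. An unadjusted p under 0.05 was reached by 74 members (32%, beside 29.9% of the other genes). In bulk RNA a change in the share of cells that express a gene and a change in RNA per cell cannot be told apart.

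Zfp532 had the smallest p among them. With Zfp592 and Zfp687 it belongs to a set of chromatin proteins that bind Zmynd8. It had 257, 310.4 and 309 normalized counts in the control, 303, 277 and 319 at day 2, 115, 105 and 101 at day 4, and 195, 169 and 212 at day 6. Day 4 lay far below all other groups, and day 6 lay between day 4 and the rest, with no overlap. The log2 change at day 4 was -1.44 ± 0.14 against the control (adjusted p 9.725e-06) and -1.48 ± 0.14 against day 2 (adjusted p 1.252e-05), and the rise from day 4 to day 6 was 0.84 ± 0.14 (adjusted p 0.00172), all by limma. Leaving out any 1 library ended none of these 3 calls, while day 6 against control (-0.61 ± 0.14, adjusted p 0.0153) was lost when control replicate 2, control replicate 3, day 6 replicate 1 or day 6 replicate 2 was left out. Of the 31-base words of Zfp532, 27.2% lie in other genes. Zfp592 was below the level, and Zfp687, which passed in no comparison, had a log2 change of -0.39 at day 4 (adjusted p 0.612).

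Zfp57, the KRAB protein that keeps methylation at imprinted loci, fell as well. Its libraries stood at 372, 355 and 404 in the control, 318, 341 and 313 at day 2, 185, 163 and 191 at day 4, and 224, 194 and 262 at day 6. Both later groups lay wholly below the first ones. The change was -1.07 ± 0.14 at day 4 (adjusted p 0.000112) and -0.74 ± 0.14 at day 6 (adjusted p 0.00406) against the control, and -0.85 ± 0.14 from day 2 to day 4 (adjusted p 0.00145) by limma, and each held with every library left out. Day 2 against control was -0.22 and did not pass (adjusted p 0.579).

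Zfp518b, a reported G9a partner like Zfp518a, had 138, 116 and 116 in the control, 104, 84.0 and 89.8 at day 2, 54.6, 48.4 and 52.5 at day 4 and 86.8, 54.5 and 85.3 at day 6. Day 4 lay below the control and day 2 without overlap (-1.23 ± 0.19 against the control, limma adjusted p 0.000374), and day 6, with replicate 2 near the day 4 level, was -0.72 ± 0.19 (adjusted p 0.0271), a call lost without any control or day 6 replicate 2. Zfp518a, with 899.9, 1226 and 1832 at day 4 and 1399, 1020.0 and 987 in the control, passed in no comparison. Zfp459, a KRAB gene, had 120.0, 130.1 and 130.2 in the control, 114, 95.3 and 101 at day 2, 64.6, 51.3 and 73.3 at day 4 and 59.3, 48.5 and 71.1 at day 6. Days 4 and 6 overlapped each other and lay below the other 2 groups, at -1.01 ± 0.18 (adjusted p 0.00123) and -1.09 ± 0.18 (adjusted p 0.00143) against the control, and both held with each library left out. Of its 31-base words 20.5% are shared with other genes.

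Among lower genes of small level, Zfp428 had 38.8, 23.0 and 33.1 in the control, 22.4, 17.0 and 21.4 at day 2, 7.65, 10.3 and 9.78 at day 4 and 11.1, 14.8 and 17.1 at day 6. Its log2 change was the largest fall of a member at day 4, -1.65 ± 0.29 (limma adjusted p 0.000947), and this held with each library left out. At day 6 it was -1.08 ± 0.29 (adjusted p 0.0296), lost when control replicate 1, control replicate 3, day 6 replicate 1 or day 6 replicate 2 was left out. Zfp296, a factor enriched in stem cells that promotes reprogramming, had 31.9, 19.3 and 25.4 in the control, 18.7, 20.4 and 18.4 at day 2, 13.2, 6.84 and 9.78 at day 4 and 10.5, 11.2 and 9.38 at day 6. All libraries of days 4 and 6 lay below all controls, with -1.29 ± 0.30 at day 4 (adjusted p 0.00799, held with each library left out) and -1.20 ± 0.30 at day 6 (adjusted p 0.0216, lost when control replicate 1, control replicate 3, day 6 replicate 1 or day 6 replicate 3 was left out). The sum of the stem cell markers given above was lower than in the controls at days 2, 4 and 6, but its genes differed among themselves. At day 2 Nanog (287 to 327 against 430 to 551) and Zfp42 (450 to 468 against 492 to 547) lay below every control. The other stem cell markers overlapped their controls at day 2. Sox2 had 558 to 695 normalized counts at day 4, which overlapped the controls (544 to 566), and 359 to 391 at day 6. Tdgf1 had 354 to 388 at day 4 and 196 to 246 at day 6, against 257.5 to 346.5 in the controls. Lin28a had 89.2 to 104 at day 4 and 164 to 173 at day 6, against 137 to 158. Zfp42 and Esrrb lay below every control at days 4 and 6, Pou5f1 at day 4 and Nanog at day 6. Dppa5a lay above every control at day 4 and Utf1 at day 6. Sums of other marker lists were low but also moved. The 5 neural markers summed to 46.5 to 56.1 at day 6 against 21.5 to 36.99 in the controls. Among them Nes had 20.9 to 33.5 at day 6 against 0 to 7.77, while Tubb3, Pax6, Sox1 and Neurod1 overlapped their controls. At day 4 Pax6 (3.89 to 8.84 against 0 to 2.59) and Neurod1 (8.46 to 11.8 against 0 to 2.48) lay above every control. Nes, Tubb3 and Sox1 overlapped theirs at day 4, as did the neural sum. The 5 trophoblast markers summed to 2.85 to 7.84 at day 2 and 5.25 to 14.2 at day 6 against 0 to 2.76 in the controls. At day 6 the sum came from Cdx2 and Eomes alone, with Gata3, Krt7 and Elf5 at 0. The 7 endoderm markers, 3 of them at 0 in every library, summed to 12.2 to 17.1 at day 4 against 2.21 to 8.63. Most of this was Gata6 (8.47 to 13.7 against 2.21 to 6.04), while Sox17 was above 0 only in control libraries. The part of any of these in the changes of Zfp296, Zfp57 or the other members was not tested.

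Zfp808 fell at day 4 and was back at day 6. It had 90.8, 98.2 and 71.8 in the control, 54.7, 76.9 and 72.1 at day 2, 47.3, 47.4 and 44.4 at day 4 and 83.6, 74.5 and 90.7 at day 6. The day 4 libraries lay below all others (-0.88 ± 0.18 against the control, adjusted p 0.00365; day 6 against day 4 0.82 ± 0.18, adjusted p 0.0127, lost without day 6 replicate 1). Zfp808 holds 2 small nucleolar RNA genes on its strand and shares 43.2% of its words, so its count is uncertain. Zfp286 completed the 8 largest falls among calls without overlap, at 17.3, 13.2 and 12.1 in the control and 5.21, 2.28 and 8.55 at day 4. Its change was -1.38 ± 0.43 (limma adjusted p 0.0391), but the call held only without day 4 replicate 3. Zfp286 met the level without any day 4 library, so this fall is not independent of the choice. The other 8 of the 16 lower genes fell by 0.53 to 0.81, from Zfp263 to Zfp12, and held Zfp110, a neurotrophin receptor-interacting factor, and Zfp961.

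The largest rises at day 4 were in genes of low level. Zfp128, a KRAB gene, had 3.45, 4.60 and 2.42 in the control, 3.36, 15.3 and 8.55 at day 2, 11.7, 18.2 and 12.2 at day 4 and 11.3, 10.1 and 13.3 at day 6. Days 4 and 6 lay above every control, but the control values are a few reads each. The log2 change at day 4 was 1.75 ± 0.46 (limma adjusted p 0.0155), lost without control replicate 3 or day 4 replicate 2. No control reached 10, so Zfp128 met the level through the TUNA groups alone, and this rise is not independent of that choice. Zfp692, which binds an AICAR response element, had 7.77, 5.41 and 16.5 in the control and 37.8, 23.9 and 23.2 at day 4. Control replicate 3 stood above the other controls and day 4 replicate 1 above the other day 4 libraries, without overlap (1.52 ± 0.38, adjusted p 0.0119, lost without control replicate 2 or day 4 replicate 1). Zfp189 had 7.77, 11 and 15.4 in the control and 26.7, 25.1 and 30.6 at day 4 (1.24 ± 0.36, adjusted p 0.0281, held only without control replicate 3).

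Among the 8 largest rises at day 4 that were called without overlap, only that of Zfp948, a KRAB gene, held with each library left out. It had 22.1, 27.4 and 25.7 in the control, 12.3, 24.3 and 25.6 at day 2, 56.9, 62.4 and 51.04 at day 4 and 27.7, 37.6 and 35.3 at day 6. The day 4 libraries stood above all the others, with 1.15 ± 0.26 against the control (limma adjusted p 0.00640) and 1.47 ± 0.26 against day 2 (adjusted p 0.00212). The other 4 of these rises were Zfp810 (0.98), Zfp781 (0.96), Zfp273 (0.86) and Zfp184 (0.85). Without overlap, they ran from 10.1 to 20.8, 9.74 to 10.6, 14.7 to 29.8 and 18.3 to 21.8 in the controls and from 24.1 to 30.6, 18.5 to 22.6, 32.8 to 46.4 and 31.7 to 41.0 at day 4. Each call was lost without 4 or 5 of the 6 libraries taken 1 at a time. The calls of Zfp810 and Zfp273 held only without control replicate 3, that of Zfp781 only without control replicate 2 or day 4 replicate 1, and that of Zfp184 only without control replicate 3 or day 4 replicate 3. Zfp781 shares 97.7% of its words with other genes and Zfp273 29.1%. The other 11 of the 19 higher genes rose by 0.49 to 0.87, from Zfp945 to Zfp949. Zfp949 was the 1 called gene of this comparison whose groups overlapped (0.87 ± 0.27, adjusted p 0.0413).

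**Figure D4:**
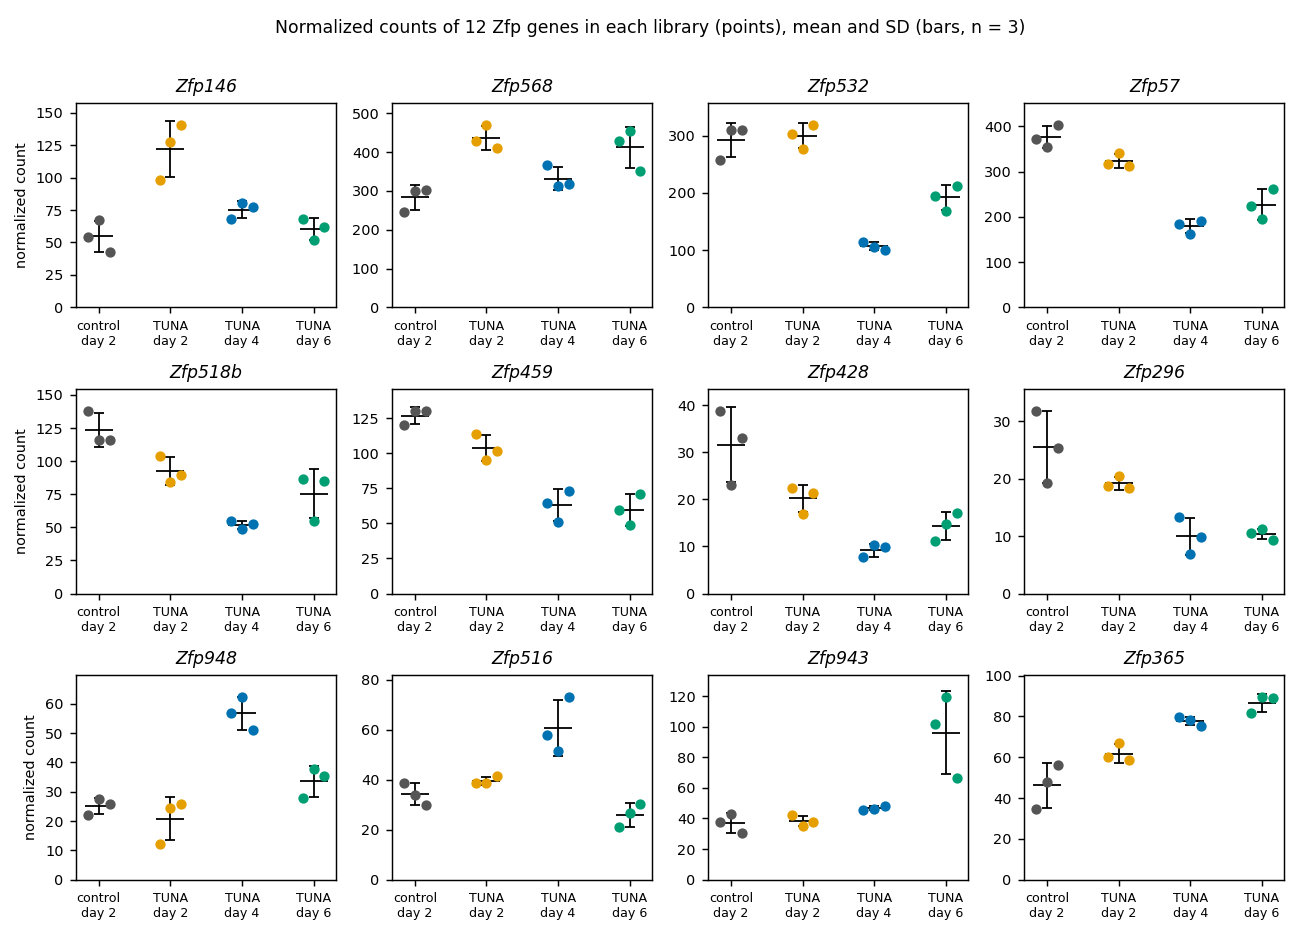
Normalized counts of 12 Zfp genes in every library (points) with the mean and SD of each group (bars, n = 3), on axes that start at 0. Zfp146 is highest at day 2, Zfp948 and Zfp516 at day 4 and Zfp943 at day 6, while Zfp532, Zfp57, Zfp518b and Zfp428 have their lowest means at day 4.

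At day 6, 5 Zfp genes were above the day 2 control and 7 below it, or 2.16% and 3.03% of the members beside 3.07% and 3.15% of all genes tested. The median log2 change was 0.02 for the members and -0.01 for the others. An unadjusted p under 0.05 was reached by 30 members (13%, beside 19.7% of the other genes). Zfp943, a KRAB gene, had 37.7, 43.0 and 30.4 in the control, 42.0, 35.2 and 37.5 at day 2, 45.6, 46.3 and 48.2 at day 4 and 102, 119.5 and 66.4 at day 6. Every day 6 library lay above every other one, with replicate 3 the lowest of them. The change was 1.32 ± 0.22 against the control (limma adjusted p 0.00126, held with each library left out) and 0.98 ± 0.22 against day 4 (adjusted p 0.0121, lost without day 6 replicate 1 or 2).

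Zfp365, a protein of genome stability whose gene p53 is known to activate, had 34.5, 47.8 and 56.2 in the control, 59.99, 66.9 and 58.4 at day 2, 79.6, 78.2 and 75.4 at day 4 and 81.7, 89.6 and 89.1 at day 6. No control reached the lowest TUNA library of any day. The change was 0.92 ± 0.18 at day 6 (limma adjusted p 0.00487, held with each library left out) and 0.77 ± 0.18 at day 4 (adjusted p 0.00938), while 0.44 at day 2 did not pass (adjusted p 0.338). Zfp867 had 15.9, 12.9 and 16.5 in the control and 39.0, 33.0 and 27.8 at day 6 (1.08 ± 0.25, adjusted p 0.0130, lost without control replicate 2 or day 6 replicate 1). Zfp869 had 19.5, 16.9 and 23.2 in the control and 40.5, 33.4 and 31.4 at day 6 (0.80 ± 0.23, adjusted p 0.0479), a call lost without any 1 of the 6 libraries. Zfp59, the lower gene not yet described, had 77.7, 97.4 and 117 in the control and 55.5, 54.5 and 57.6 at day 6 (-0.77 ± 0.18, adjusted p 0.0167, lost when control replicate 2, control replicate 3, day 6 replicate 1 or day 6 replicate 2 was left out), and it shares 65.1% of its words.

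From day 2 to day 4 within the TUNA hairpin, 4 Zfp genes rose and 19 fell, 1.73% and 8.23% of the members beside 3.27% and 4.38% of all genes tested. The median of the members was nonetheless 0.05 against -0.01 for the others. An unadjusted p under 0.05 was reached by 44 members (19%, beside 23.8% of the other genes). The 8 largest falls among calls without overlap were those of Zfp532, Zfp57, Zfp428, Zfp626, Zfp27, Zfp160, Zfp719 and Zfp64. Zfp428 changed by -1.05 ± 0.29 (limma adjusted p 0.0307, held only without day 4 replicate 3). Zfp160, a KRAB gene, had 25.7, 27.1 and 27.0 at day 2, 15.2, 12.5 and 10.8 at day 4 and 23.8, 28.1 and 27.8 at day 6. Among the 3 TUNA groups it was low at day 4 alone. The change of Zfp160 was -1.01 ± 0.24 from day 2 to day 4 (limma adjusted p 0.0149, lost without day 2 replicate 2 or 3). To day 6 it was 1.00 ± 0.24 (adjusted p 0.0187, lost without day 4 replicate 2 or 3 or day 6 replicate 2). Zfp626 had 23.0, 11 and 22.7 at day 2 and 7.76, 5.70 and 4.89 at day 4, with day 2 replicate 2 standing apart (-1.44 ± 0.37, adjusted p 0.0243, lost without day 2 replicate 1 or 3 or day 4 replicate 2 or 3). Zfp626 too met the level without any day 4 library.

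Zfp27 had 41.4, 39.7 and 29.9 at day 2 and 20.2, 17.1 and 15.9 at day 4 (-1.01 ± 0.23, limma adjusted p 0.0124, lost without day 2 replicate 1 or 2). Zfp719 had 68.5, 86.4 and 86.9 and then 49.5, 41.0 and 41.5 (-0.86 ± 0.20, adjusted p 0.0128, lost without day 2 replicate 2 or 3 or day 4 replicate 2), and Zfp64 78.8, 85.1 and 105 and then 33.8, 54.2 and 64.8 (-0.84 ± 0.25, adjusted p 0.0461, held only without day 4 replicate 3). In the controls Zfp626 had 8.65 to 15.4, Zfp27 21.5 to 29.8, Zfp719 53.45 to 76.3 and Zfp64 44.0 to 56.1. At day 4 Zfp626, Zfp27 and Zfp719 lay below their controls, while Zfp64 overlapped its controls. The 4 rises were those of Zfp948, Zfp692 (1.34, held only without day 4 replicate 3), Zfp512 (1.08) and Zfp655 (0.61). Zfp655, a KRAB protein that binds the signalling protein Vav1, had 133, 108 and 108 at day 2 and 179.8, 186 and 169 at day 4, without overlap (limma adjusted p 0.0286, held only without day 2 replicate 1 or day 4 replicate 3). Zfp512 had 11.6, 14.7 and 11.3 at day 2 and 26.4, 34 and 23.2 at day 4 (adjusted p 0.0195, held only without day 2 replicate 2 or day 4 replicate 3).

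From day 4 to day 6, 5 Zfp genes rose and 4 fell, 2.16% and 1.73% of the members beside 2.64% and 2.94% of all genes tested. An unadjusted p under 0.05 was reached by 51 members (22.1%, beside 20.7% of the other genes). Zfp516, which works with the histone demethylase Lsd1, had 38.8, 34 and 29.8 in the control, 38.5, 38.6 and 41.3 at day 2, 57.9, 51.3 and 73.1 at day 4 and 20.9, 26.5 and 30.3 at day 6. Day 4 was above every other group and day 6 below day 4, with a log2 change of -1.20 ± 0.21 (limma adjusted p 0.00217, held with each library left out). Its day 4 rise over the control was 0.80 ± 0.21 (adjusted p 0.0158). Zfp292 had 337, 311 and 284 in the control, 354, 384 and 382 at day 2, 414, 427 and 557 at day 4 and 322, 274 and 319 at day 6. Day 4 was its highest group, with 0.57 ± 0.14 over the control (adjusted p 0.0123) and -0.60 ± 0.14 from day 4 to day 6 (adjusted p 0.0192, lost without day 4 replicate 3 or day 6 replicate 1 or 2). Zfp273 (-0.93) and Zfp942 (-0.64) were the other falls and Zfp345 (0.83), with Zfp532, Zfp808, Zfp160 and Zfp943, the other rise. The call of Zfp942 held only without day 4 replicate 3, that of Zfp273 only without day 6 replicate 3, and that of Zfp345 only without day 4 replicate 3 or day 6 replicate 3.

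**Figure D5:**
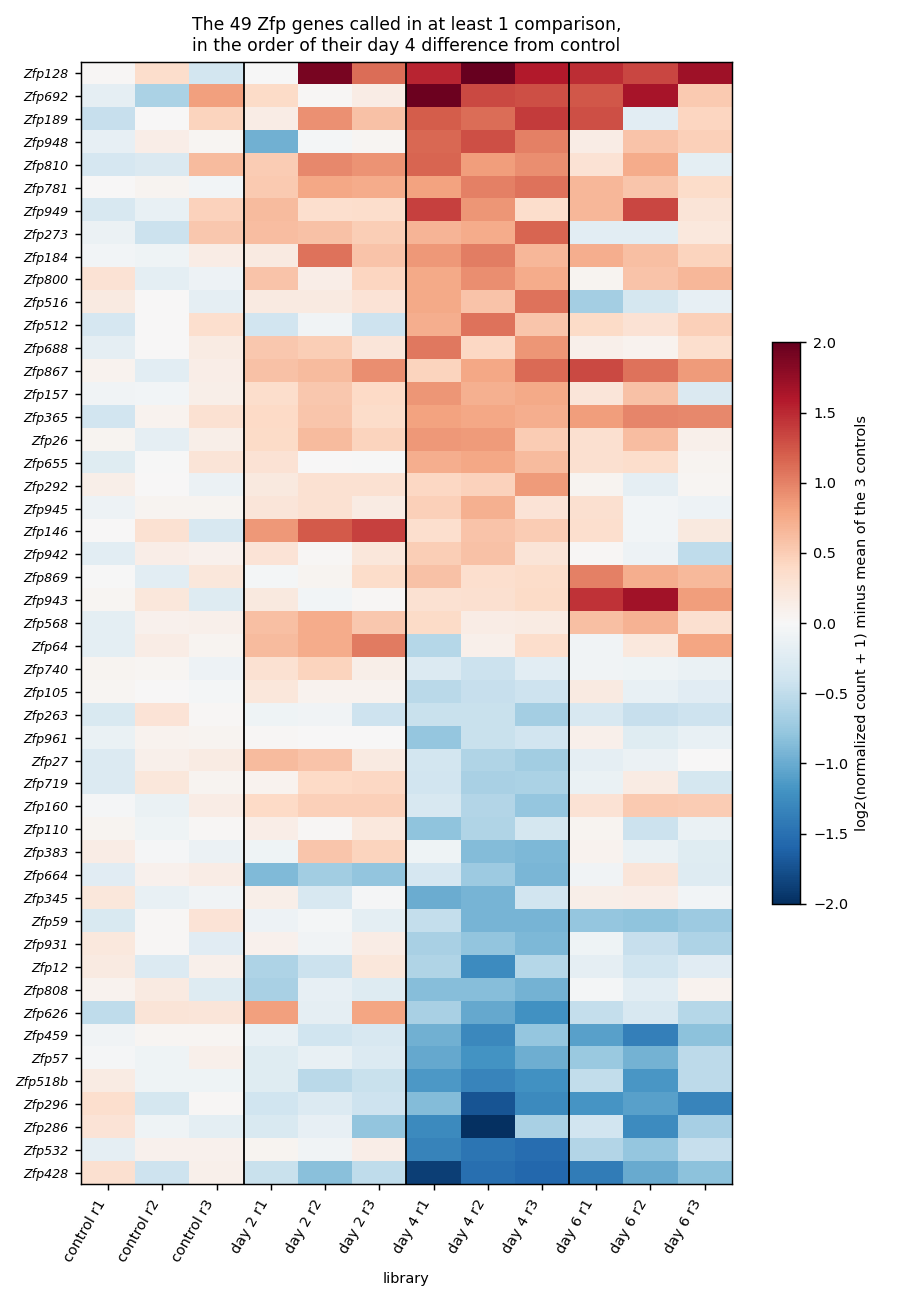
Each of the 49 Zfp genes called in at least 1 of the 5 comparisons (rows) in each of the 12 libraries (columns), as log2(normalized count + 1) minus the mean of the 3 controls, in the order of the day 4 difference. The colour scale ends at -2 and 2, and at the ends of the day 4 order stand Zfp128 (1.75) and Zfp428 (-1.65).

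Of 9 tested members of the stem cell network and imprint list, Zfp292 was higher and Zfp57 and Zfp296 lower at day 4, and Zfp57 and Zfp296 lower at day 6. Of all genes tested, 0.412% were higher at day 2, 6.99% higher and 7.76% lower at day 4, and 3.07% and 3.15% at day 6. As the lists were chosen with earlier results known, counts of this list and those below are not results about the lists. Zfp281, at 694, 744 and 687 in the control and 479, 597 and 573 at day 4, did not overlap between these groups but did not pass (-0.37, adjusted p 0.0966). Zfp143 itself had 30.8, 20.01 and 14.2 in the control and 31.6, 31.8 and 27.9 at day 4, with overlap, and passed in no comparison (lowest adjusted p 0.0727, day 6 against day 4). Of the 6 KRAB repressors of retroelements or of single transcripts, Zfp568 was higher at days 2 and 6 and Zfp459 lower at days 4 and 6, while Zfp809, which silences murine leukemia proviruses, had 0.07 at day 4 (adjusted p 0.810). None of 10 members that bind RNA or work on ribosomes and splicing passed the limma test in any comparison, Zfp106 among them (0.09 at day 4, adjusted p 0.668). At an unadjusted p under 0.05, 1 of the 10 was higher and 1 lower at day 4 against the control. At day 4, Zfp706 had -0.55 (adjusted p 0.0742), and Zfp318 had 0.67 (adjusted p 0.0646). Of 9 chromatin complex members, Zfp516 rose and Zfp532 fell at day 4.

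Of the 141 members with a KRAB box, 13 were higher and 10 lower at day 4 (9.22% and 7.09%), against 6 and 6 of the 90 others (6.67% each), and the median changes were 0.07 and 0.00, a difference that was not tested. Members of 15 or more fingers held 6 higher and 3 lower of 52, and those with up to 4 fingers 3 and 4 of 33. Of the 172 members that share under 10% of their words, 16 were higher and 8 lower, whereas the 59 that share more held 3 higher and 8 lower; this difference was not tested. The 37 members with the Zfp143 core held 4 higher (Zfp128, Zfp189, Zfp273 and Zfp692) and 0 lower at day 4 by limma (3 lower at an unadjusted p under 0.05), and the 153 whose listed promoters lack it held 14 and 14. Their medians were -0.01 and 0.07. Of all genes tested, 6.99% were higher and 7.76% lower at day 4. With so few called genes per class, none of these counts is a result about a class. Zfp128 also met the level through the TUNA groups alone. At day 2 the gene with the core that rose was Zfp146, beside 0.412% of all genes tested.

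Many Zfp genes lie next to one another, and 54 pairs of members, 88 genes in all, are adjacent in RefSeq order among protein-coding genes. The log2 changes of the 2 genes against the control had the same sign in 33 of 54 pairs at day 2, 30 at day 4 and 29 at day 6. From day 2 to day 4 it was 25 pairs and from day 4 to day 6 27. Correlations of the changes within pairs ran from -0.06 to 0.12 over the 5 comparisons. Pairs of other genes were not counted. Zfp110 and Zfp128 are such neighbours and went opposite ways at day 4, at -0.58 and 1.75 against the control. Among the pairs with the same sign, Zfp27 and Zfp383 both fell from day 2 to day 4 (-1.01 and -0.92), and so did Zfp626 and Zfp59 (-1.44 and -0.66).

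The partners through which KRAB proteins are known to silence are not Zfp genes, and their values are given beside those of the members. Of 27 tested genes of that list, Cbx5, which encodes an HP1 protein, was lower at day 2 (-0.62 ± 0.13, limma adjusted p 0.0386). At day 4 Setdb1 was at 36.3 against 76.1 normalized counts (-1.05 ± 0.19, adjusted p 0.00116), Uhrf1 at 95.2 against 182.5 (-0.93 ± 0.17, adjusted p 0.00123) and Smarcad1 at 366 against 585 (-0.68 ± 0.13, adjusted p 0.00226), and Rbbp7 was higher (0.95 ± 0.21, adjusted p 0.00517). These 3 lower and 1 higher of 27 stand beside 7.76% and 6.99% of all genes tested, so they are not a result about the list, whose median change was -0.19. At day 6 Uhrf1 and Smarcad1 were lower, 2 of 27 beside 3.15%, and the 1 lower at day 2 stands beside 0.549%. Trim28 itself had means of only 14.4 to 17.0 in the 4 groups and did not pass in any comparison, with 0.617 as its adjusted p at day 4.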

How the data were processed

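RNA of 12 libraries in 4 groups of 3 was analysed. The authors deposited 1 table of log2 normalized counts per gene symbol; per the submitters' processing notes BWA, DESeq and the mouse build mm9 were used, with no version or step stated, and strand, counting rules and annotation are not given in the sources used here. The deposited log2 values end at 0, which was read as 0 normalized counts. Between 45.5% and 67.2% of low values per library lay within 0.02 of whole reads, so many low values were not whole reads. No count model was therefore used, and read totals are estimates. Values were raised to normalized counts and log2(value + 1) was modelled by limma (3.58.1, R 4.3.3). The model had a mean for each group, used all 12 libraries, let the variance prior follow intensity, and had 8 residual and 9.48 prior degrees of freedom, over the 8739 rows that reached 10 normalized counts in 3 or more libraries. Benjamini-Hochberg adjustment was made separately for the 5 comparisons, and a call is an adjusted p under 0.05. The fit was tested on simulated data. Levels carry the SD (n = 3) and log2 changes the SE.

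The members and all lists were chosen with earlier results of these data known. Members named are, per comparison, the up to 8 largest rises and 8 largest falls among calls without overlap, the 10 highest levels, members at the limit of the level, list members described by role and those of the closing section; Zfp712, Zfp263, Zfp12, Zfp945, Zfp383 and Zfp687 were named beyond this after their values were seen. The KRAB profile (34 residues, from 99 windows) and its limit, the bins of fingers and shared words, the 3 motifs, the promoters shown and the genes plotted were also chosen after results were seen. Gene features came from GENCODE M21 and RefSeq on GRCm38, in which 222 members matched by symbol and 9 by an older symbol; the files use mm9, so only the printed RefSeq promoters carry coordinates. Plots came from Python 3.11.15 and matplotlib 3.10.9.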

Additional observations from a re-analysis of the deposited data

Results flagged for a closer look

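For 32 changes of members, the difference from the control at one day was not that at the next TUNA day by a direct limma test (adjusted p under 0.05). As the control is shared, each equals the change between the days. From day 2 to day 4 the log2 change relative to control dropped for Zfp532 (-1.48), Zfp626 (-1.44), Zfp428 (-1.05), Zfp27 (-1.01), Zfp160 (-1.01), Zfp383 (-0.92), Zfp719 (-0.86), Zfp57 (-0.85), Zfp64 (-0.84), Zfp931 (-0.83), Zfp518b (-0.82), Zfp459 (-0.72), Zfp110 (-0.71), Zfp345 (-0.69), Zfp146 (-0.68), Zfp59 (-0.66), Zfp105 (-0.60), Zfp740 (-0.59) and Zfp961 (-0.54). It rose for Zfp948 (1.47), Zfp692 (1.34), Zfp512 (1.08) and Zfp655 (0.61). From day 4 to day 6 it rose for Zfp160 (1.00), Zfp943 (0.98), Zfp532 (0.84), Zfp345 (0.83) and Zfp808 (0.82) and dropped for Zfp516 (-1.20), Zfp273 (-0.93), Zfp942 (-0.64) and Zfp292 (-0.60). Zfp383 overlapped between day 2 (21.4, 34.1 and 31.4) and day 4 (21.4, 12.1 and 11.8). No formal test for a single deviating library was made in groups of 3.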

How the results depend on the processing

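No named member changed direction under any alternative run, and the 2 other scalings and a pseudocount of 5 kept each named call; a mean of at least 10 kept each one it could test, Zfp128 and Zfp286 falling out. Of 51 named calls, 12 were lost with no filter on level, 11 with no intensity trend, 14 in a fit of only the 2 groups and 5 with the replicate block. Lost in 1 to 4 of these fits were Zfp568 at day 2, Zfp810, Zfp273 and Zfp286 at day 4, Zfp869, Zfp568, Zfp428, Zfp518b and Zfp532 at day 6, Zfp692, Zfp655, Zfp626, Zfp428 and Zfp64 from day 2 to day 4, and Zfp160, Zfp943, Zfp345, Zfp273, Zfp942 and Zfp292 from day 4 to day 6. Zfp810 and Zfp942 were lost in all 4, with adjusted p up to 0.0757 and 0.133, and Zfp568 at day 2 reached 0.161. Counts of called members moved by over 1.5 times in these cases. Without a filter on level there was 1 member higher at day 2, 10 lower from day 2 to day 4 and 2 lower from day 4 to day 6. Without the intensity trend these were 1 higher at day 2, 2 higher from day 2 to day 4 and 1 lower from day 4 to day 6. A fit of only the 2 groups compared, with fewer libraries, called 1 lower at day 2, 3 higher at day 6, and 2 higher and 1 lower from day 4 to day 6. Same-numbered libraries of different groups did not deviate together as a set (correlations -0.28 to 0.33 over 18 pairs, 3 above 0.1). Over 36 pairs with different numbers they ran from -0.33 to 0.315, with 5 above 0.1. Some libraries did deviate together across groups. Day 4 replicate 3 went with day 6 replicate 3 (0.33) and control replicate 1 (0.28), and day 4 replicate 1 with day 6 replicate 2 (0.315). Day 4 replicate 1 went against day 6 replicate 3 (-0.33). What these libraries share was not tested. With the replicate number as a block there was 1 higher at day 2, where Zfp568 was lost, and 16 higher and 15 lower at day 4. With 1 library left out at a time, the counts ran from 0 to 1 higher and 0 to 0 lower at day 2, 9 to 15 higher and 9 to 14 lower at day 4, 2 to 6 higher and 2 to 7 lower at day 6, 1 to 4 higher and 5 to 15 lower from day 2 to day 4, and 2 to 6 higher and 1 to 6 lower from day 4 to day 6. The lowest counts came without control replicate 2 or day 4 replicate 2 (9 higher at day 4), control replicate 3 or day 4 replicate 2 (9 lower at day 4), and day 2 replicate 3 or day 4 replicate 2 (5 lower from day 2 to day 4). The cause was not tested. With 3 libraries per group and 938710 to 2026630 reads outside the 3 dominant rows, small changes of low genes were not detectable at this depth.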
